A study of Mus musculus with 6 samples.

Results

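The GIMAP genes (GTPases of the immunity-associated protein family) were followed in bulk RNA sequencing of lymphocytes that had been sorted from mouse mammary gland late in pregnancy (E18.5). The members were the 8 genes with the symbols Gimap1, Gimap3, Gimap4, Gimap5, Gimap6, Gimap7, Gimap8 and Gimap9, out of 55450 genes in the table. All 8 passed the filter on low counts, which left 13171 genes. The 6 libraries fall into 3 of CD8 beta+ T cells and 3 of cells labelled double negative (DN) NK1.1+. NK1.1, encoded by Klrb1c, marks natural killer (NK) cells and some T cells. The labels call the DN cells lymphocytes in one field and T cells in another, and do not name the pair of markers they lack. The labels do not say whether replicates came from separate animals, so the spread behind the p-values is that between libraries and may be technical. Strain and age: not given in the sources used here.

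GIMAP proteins are small GTP-binding proteins found mostly in lymphocytes, where several of them sit on the membranes of internal organelles. They are best known for keeping resting peripheral T cells alive: mice without Gimap5 or Gimap1 lose most of their mature T cells, and loss of Gimap5 also depletes NK cells. In the mouse the genes lie side by side in one cluster, the product of repeated gene duplication. Blood vessel endothelium is another known site of GIMAP expression.

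The cluster lies on chromosome 6 of build mm10 from 48647234 to 48770851, a span of 123.6 kb with 6 members on the plus and 2 on the minus strand. In the order of the chromosome, Gimap8 runs from 48647234 to 48660875, Gimap9 from 48676129 to 48679114, Gimap4 from 48684549 to 48692060 and Gimap6 from 48701582 to 48708225. Gimap7 follows from 48718621 to 48724636, Gimap1 from 48739054 to 48743795, Gimap5 from 48746197 to 48754210 and Gimap3 from 48764464 to 48770851. All are annotated as protein-coding. What the family shares is the P-loop, the stretch of a GTPase that holds the phosphates of GTP. The coding sequence of that stretch is shown for each gene, 5′ to 3′, because it shows how far the copies have diverged. It was found by translating each coding sequence and looking for a glycine, 4 residues of any kind, then glycine, lysine and serine or threonine. Capitals mark the last 3 codons of the motif. Each stretch lies within 1 coding exon, for Gimap7 at chr6:48723524-48723547 (plus strand, exon 2) and for Gimap6 at chr6:48702750-48702773 (minus strand, exon 3). Gimap8, the largest member, holds 3 of them where the others hold 1.

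Gimap1: ggcaggactgggaccGGCAAGAGT
Gimap3: ggcaaatctggctgcGGTAAAAGC
Gimap5: ggcaaatctggctgcGGTAAAAGC
Gimap4: ggaaaaactggagcaGGAAAGAGT
Gimap6: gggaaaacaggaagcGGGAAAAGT
Gimap7: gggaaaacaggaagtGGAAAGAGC
Gimap9: gggaagactggaaatGGGAAGAGT
Gimap8 motif 1: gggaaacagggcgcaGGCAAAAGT
Gimap8 motif 2: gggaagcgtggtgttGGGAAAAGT
Gimap8 motif 3: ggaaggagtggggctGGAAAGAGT

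Gimap3 and Gimap5 carry the same letters here, and their whole coding sequences are 89.9% identical over 898 aligned bases. The next closest pair, Gimap7 and Gimap9, is 64.9% identical. Of the 50-base words in the transcripts of Gimap3, 7.52% also occur in Gimap5, so reads from these stretches could be assigned to either gene. Gimap4, Gimap8 and Gimap9 shared no such word with the annotated transcripts of other genes. The opposite-strand gene Gimap1os overlaps Gimap1 and holds 32.4% of the words of Gimap1 in reverse. Whether counting used strand was not stated, so reads of Gimap1 and Gimap1os cannot be told apart with certainty. The read-through gene Gm28053 spans Gimap7 to Gimap5, but was low, at 1.67 to 4.05 CPM per library (CPM are counts scaled to a common library total after normalisation, the unit of every level given here).

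The labels were checked against marker genes. Cd8b1, which encodes the CD8 beta chain, was at 949 ± 57.8 CPM in CD8 beta+ libraries and 2.57 ± 1.58 CPM in the DN NK1.1+ group (SD, n = 3 per group), and Klrb1c was at 37.1 ± 5.68 and 639 ± 20.8 CPM. Of 11 T cell markers, 9 were lower in the DN NK1.1+ group, against 5.99% of all tested genes. Cd3e and Cd3g, for chains of the T cell receptor complex, were at 765 ± 19.4 and 728 ± 63.8 CPM in CD8 beta+ libraries and at 522 ± 7.47 and 665 ± 66.5 CPM in the DN NK1.1+ group. Cd5 and Cd6, for surface proteins of mature T cells, went from 159 ± 11.1 to 10.1 ± 0.811 CPM and from 237 ± 15.3 to 16.8 ± 0.983 CPM. In DN NK1.1+ libraries Ncr1, for the NK receptor NKp46, was at 273 ± 20.6 CPM against 0.485 ± 0.182 CPM in CD8 beta+ libraries. Library totals ran from 7961360 to 14367299 counts, and a single count was worth 0.0722 to 0.13 CPM. CD8 beta+ replicate 3 stood apart in genes of naive and recirculating T cells: a list of 20 such genes summed to 4330, 4230 and 2640 CPM in CD8 beta+ replicates 1, 2 and 3.

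GIMAP transcripts were about equally abundant in both groups. The 8 genes together summed to 1807, 1862 and 1844 CPM in the CD8 beta+ libraries and to 1803, 1960 and 1720 CPM in the DN NK1.1+ libraries. The ranges overlap, and the means were 1837 ± 28.1 and 1828 ± 122 CPM (SD, n = 3), or 0.184% and 0.183% of the normalised library total. CD8 beta+ replicate 3 did not stand apart in this sum, but had the lowest Gimap6 (318 CPM) and the highest Gimap7 (98.0 CPM) of its group. Without it Gimap7 and Gimap6 were still lower (log2 fold change −0.581 and −0.36, edgeR adjusted p = 0.00363 and 0.0227). Without CD8 beta+ replicate 1 or 2, Gimap7 still passed and Gimap6 did not (edgeR adjusted p = 0.159 and 0.155 for Gimap6).

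**Figure D1:**
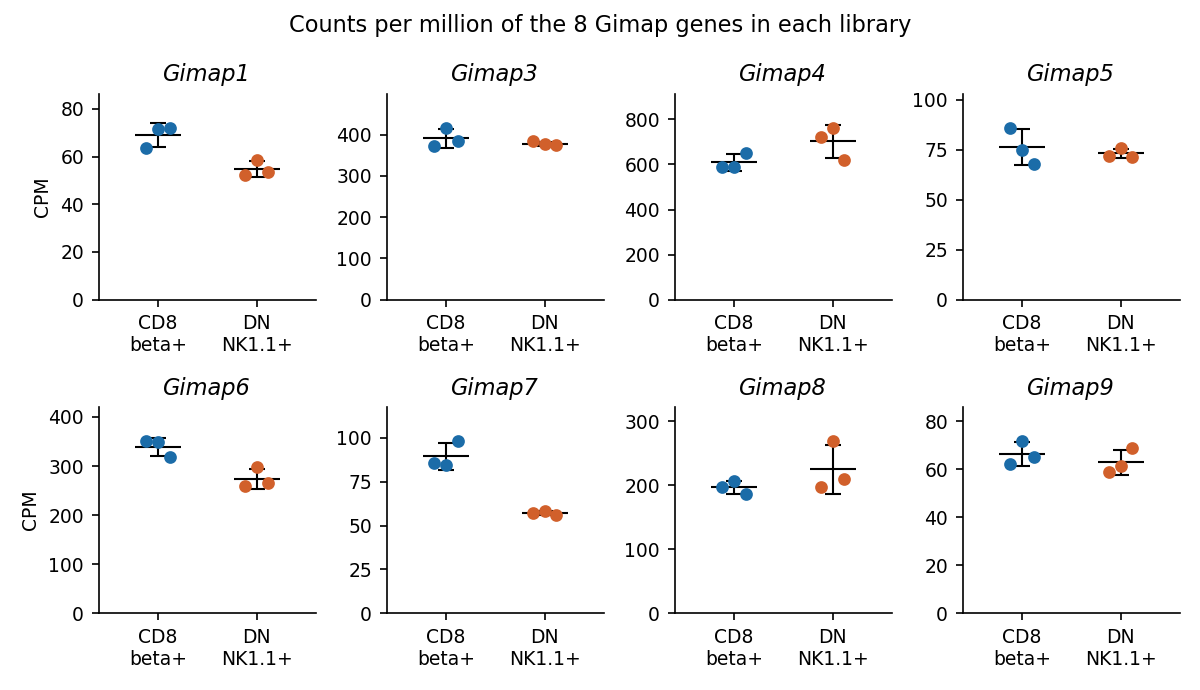
CPM (y axis, from 0) of each Gimap gene in the 3 CD8 beta+ (blue) and 3 DN NK1.1+ (orange) libraries, with points for libraries and bars for the mean ± SD. Only in Gimap1, Gimap6 and Gimap7 do all 3 DN NK1.1+ points lie below all 3 CD8 beta+ points.

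Gimap7 and Gimap6 were lower in the DN NK1.1+ group, and 0 of the 8 members were higher. Calls rest on edgeR (quasi-likelihood fit, p-values adjusted by Benjamini-Hochberg, adjusted p under 0.05), which called 13.8% of all tested genes: 7.84% higher and 5.99% lower. At an unadjusted p under 0.05, 3 members (Gimap7, Gimap6 and Gimap1) were lower and 0 higher, against 25.0% of all tested genes in either direction. With DESeq2 and with limma-voom, 0 members were higher too. The median log2 fold change was −0.07 for the members and −0.0033 for all tested genes, and the median size of the change, whatever its sign, was 0.199 and 0.294. All 3 DN NK1.1+ values lay below all 3 CD8 beta+ values in 3 members, against 14.6% of all tested genes, and above them in 0 members, against 16.0%. Groups without overlap in either direction made up 30.6% of all tested genes. In bulk samples, fewer cells that express a gene and less RNA of it per cell cannot be told apart.

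Gimap7 showed the largest change of the family. Its human counterpart is known to form dimers in which one GTPase activates the other. Gimap7 was at 85.4, 84.7 and 98.0 CPM in CD8 beta+ libraries and at 57.2, 58.6 and 56.0 CPM in the DN NK1.1+ group. The groups are well separated, and the DN NK1.1+ values lie closer together. The level fell by 0.64 on the log2 scale (SE 0.111, 95% interval −0.88 to −0.41, edgeR adjusted p = 8.78e-04), to 0.640-fold. The call held in all 15 alternatives of scaling, tool, filter and left-out library, with log2 fold changes from −0.69 to −0.58. As a description of the same fall, there were 0.145, 0.144 and 0.15 Gimap7 counts per Gimap4 count in CD8 beta+ libraries, and 0.079, 0.0768 and 0.0901 in DN NK1.1+ libraries.

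Gimap6 was lower by a smaller step. GIMAP6 protein binds GABARAPL2, a member of the ATG8 proteins that build autophagosomes. Gimap6 was at 350, 349 and 318 CPM in CD8 beta+ libraries and at 260, 298 and 265 CPM in the DN NK1.1+ group, without overlap. It fell by 0.31 on the log2 scale (SE 0.0945, 95% interval −0.51 to −0.10, edgeR adjusted p = 0.0427). The call was lost without CD8 beta+ replicate 1 or 2 (adjusted p = 0.159 and 0.155), without DN NK1.1+ replicate 1 or 3 (0.182 and 0.0702) and with scaling by library size only (0.0889), over a range of 0.0142 to 0.182 in all alternatives.

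Gimap1, needed for the upkeep of mature B and T cells, was at 63.4, 71.8 and 72.1 CPM in CD8 beta+ libraries and at 52.2, 58.4 and 53.6 CPM in the DN NK1.1+ group. These values do not overlap either, but the gene did not pass the test (log2 fold change −0.34, SE 0.117, edgeR adjusted p = 0.0737). With upper quartile scaling it did (adjusted p = 0.0489), as it did when the counts of Gimap1os were added to it, an alternative chosen after seeing the data (adjusted p = 0.0426). The antisense gene Gimap1os had a log2 fold change of −0.35 (SE 0.157, edgeR adjusted p = 0.171). The ratio of Gimap1os to Gimap1 was 0.532 to 0.584 in CD8 beta+ libraries and 0.497 to 0.640 in the DN NK1.1+ group, and so overlapped between the groups.

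The remaining 5 members overlapped between the groups and did not pass the test. Gimap4, whose product has been linked to the pace of T cell death, was at 591, 587 and 652 CPM in CD8 beta+ libraries and at 724, 763 and 621 CPM in the DN NK1.1+ group. A single DN NK1.1+ library, replicate 3, fell within the range of the other group (log2 fold change 0.20, 95% interval −0.01 to 0.42, edgeR adjusted p = 0.238). Gimap8 was at 197, 206 and 187 CPM in CD8 beta+ libraries and at 197, 269 and 210 CPM in the DN NK1.1+ group, and its log2 fold change of 0.19 became 0.04 without DN NK1.1+ replicate 2, the highest value.

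Gimap5 and its near copy Gimap3, whose proteins bind members of the BCL-2 family of cell death regulators, were close to equal in the 2 groups. Gimap3 was at 372, 416 and 384 CPM in CD8 beta+ libraries and at 383, 377 and 374 CPM in the DN NK1.1+ group, and its fold change had a 95% interval of 0.847 to 1.1. Gimap5 was at 85.9, 74.9 and 67.9 CPM and at 72.1, 75.8 and 71.5 CPM, with an interval of 0.809 to 1.14. There were 5.18 ± 0.737 Gimap3 counts per Gimap5 count in CD8 beta+ libraries and 5.17 ± 0.178 in the DN NK1.1+ group (SD, n = 3). Gimap9 was at 62.0 to 71.6 CPM and at 58.7 to 68.8 CPM, with an interval of 0.797 to 1.13. For these 3 genes the intervals leave out a fall to 0.797-fold or below and a rise above 1.14-fold.

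Levels of different members were compared as CPM per kilobase of annotated exon. Gimap4 led in both groups, at 332 ± 19.97 and 382 ± 39.7 CPM per kilobase in CD8 beta+ and DN NK1.1+ libraries (SD, n = 3). Only 0.913% and 0.805% of 11174 tested protein-coding genes had a higher mean level. Gimap3 followed with 152 ± 8.86 and 147 ± 1.88 CPM per kilobase, then Gimap6 with 97.0 ± 5.28 and 78.5 ± 5.90. Gimap8 was at 53.2 ± 2.64 and 60.8 ± 10.4, and Gimap9 at 40.3 ± 2.98 and 38.3 ± 3.19. Gimap7 was at 38.5 ± 3.22 and 24.6 ± 0.558 CPM per kilobase, and the share of genes above it went from 7.62% to 13.2%. Gimap1, at 22.5 ± 1.6 and 17.8 ± 1.06, and Gimap5, at 18.4 ± 2.19 and 17.6 ± 0.565, were lowest.

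The order of the means was the same in both groups. Neighbours overlapped between Gimap9 and Gimap7 in CD8 beta+ libraries and between Gimap1 and Gimap5 in both groups, while the other neighbours were separate in every library of a group. The order below Gimap6 depends on which exons are counted as length. Per kilobase of the longest coding transcript, Gimap7 stood above Gimap8 in CD8 beta+ libraries, at a mean of 70.4 against 62.2 CPM per kilobase, and below it in the DN NK1.1+ group, at 45.1 against 71.2. On that length Gimap1 and Gimap5 also changed places in the DN NK1.1+ group, at 36.7 and 37.5 CPM per kilobase.

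**Figure D2:**
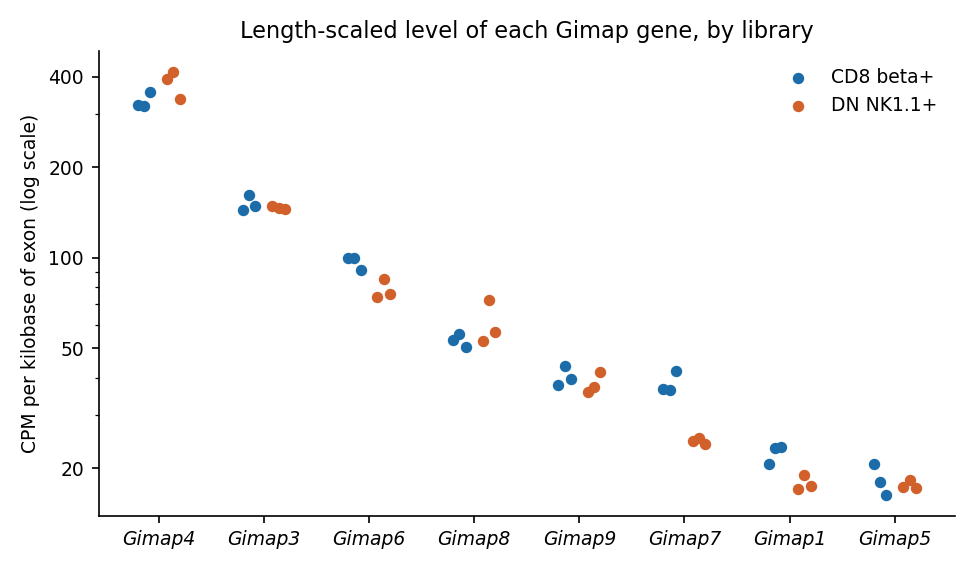
Level of each Gimap gene in CPM per kilobase of annotated exon (y axis, log scale), with a point for each of the 3 CD8 beta+ (blue) and 3 DN NK1.1+ (orange) libraries. Genes are ordered by their CD8 beta+ mean, from Gimap4 at 332 to Gimap5 at 18.4, and Gimap7 drops from 38.5 to 24.6.

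Each member's share of the family sum was compared between the groups, and 0 of the 8 differences passed the exact test. Gimap4 took 43.7%, 42.1% and 46.3% of the summed CPM per kilobase in CD8 beta+ libraries and 51.5%, 50.7% and 47.2% in DN NK1.1+ libraries, without overlap. The share of Gimap6 was 12.9% ± 0.923 and 10.2% ± 0.468, that of Gimap7 was 5.10% ± 0.356 and 3.22% ± 0.142, and that of Gimap1 was 2.98% ± 0.152 and 2.33% ± 0.105 (SD, n = 3). Each of these 4 differences had an exact two-sided permutation p of 0.1, the smallest this design allows, and 0.2 after Benjamini-Hochberg adjustment over the 8 members. They do not pass a threshold of 0.05, which no such test could here. The shares of Gimap3, Gimap5, Gimap8 and Gimap9 overlapped between the groups.

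The members differed in how they varied from library to library. Across the 6 libraries, the correlation of a member's log2 CPM with the family's mean standardized profile ran from −0.392 for Gimap4 to 0.901 for Gimap6, although each gene is part of that mean. Outside the family, the 5 protein-coding genes most like this profile among 5789 with at least 20 CPM were Uspl1, Mrpl52, Btg1, Ube3c and Rbm7 (Pearson r from 0.954 to 0.973 over 6 libraries, which share 2 groups). These 5 were picked as the top of that ranking, and each lay closer to the profile than any member did. Whether they vary with the GIMAP genes was not tested. In edgeR's test between groups 0 of the 5 passed after adjustment, here or in any alternative, and 1, Btg1, had an unadjusted p under 0.05. Btg1, for a factor that restrains cell division, was the most abundant of them, at 1026 and 869.5 CPM (edgeR adjusted p = 0.164).

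Beyond the cluster, 2 neighbouring genes rose. Tmem176b and Tmem176a, a head-to-head pair for membrane proteins of immune cells, lie 63.0 and 70.1 kb beyond Gimap3. Tmem176a was at 9.49, 9.10 and 12.9 CPM in CD8 beta+ libraries and at 48.8, 31.1 and 40.1 CPM in the DN NK1.1+ group, 3.82-fold higher (log2 fold change 1.93, SE 0.215, edgeR adjusted p = 1.46e-05). Tmem176b rose 3.28-fold, from 11.0 ± 1.79 to 35.8 ± 8.80 CPM (SD, n = 3, edgeR adjusted p = 5.04e-05). Their 3 DN NK1.1+ values all lay above those of CD8 beta+ libraries, unlike those of any GIMAP gene. The 2 genes overlap at their starts, so their counts may not be separate. Of the next coding genes, Aoc1 had 3 counts in all and 1600015I10Rik had 0. On the other side of the cluster, AI854703 and Zfp775 were at 2.09 and 3.13 CPM over all libraries and did not pass the test (edgeR adjusted p = 0.908 and 0.848), and Gm44965 and Gm45021 had 0 counts. Within the cluster, the non-coding gene 4833403J16Rik was at 17.4 ± 4.40 and 17.6 ± 3.53 CPM (edgeR adjusted p = 0.979), Gm44226 did not pass the test, and the pseudogene Gm44262 had 0 counts.

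**Figure D3:**
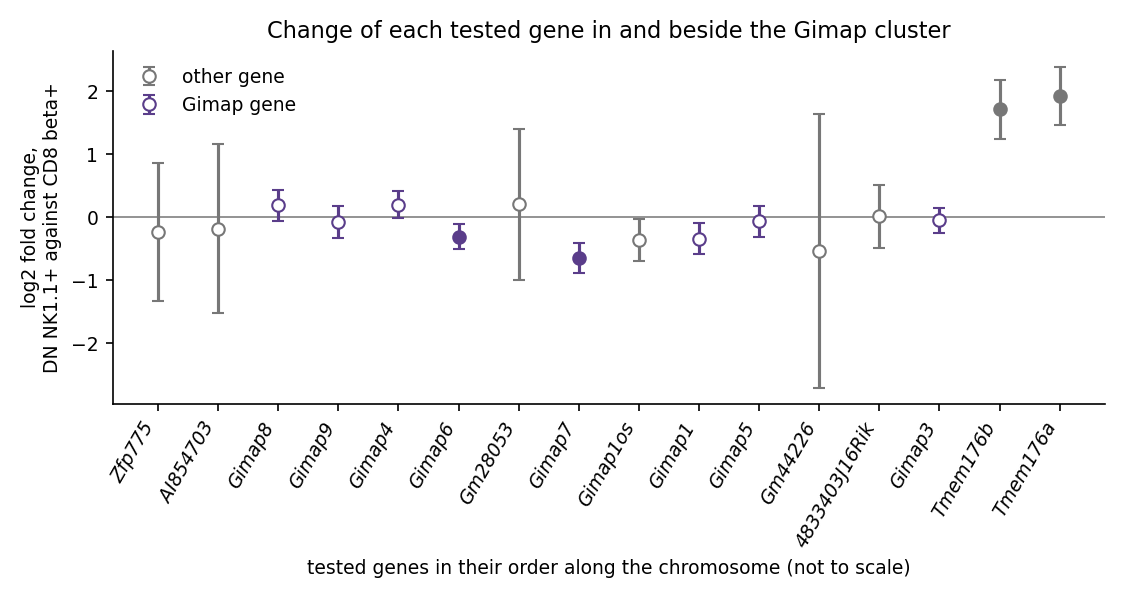
Log2 fold change of DN NK1.1+ against CD8 beta+ libraries (y axis) for tested genes within and beside the cluster, in chromosome order and not to scale, with 95% intervals. Filled points passed the adjusted p of 0.05: Gimap6 and Gimap7 below 0, and Tmem176b and Tmem176a near 1.72 and 1.93.

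Genes of naive and recirculating T cells were listed beside the GIMAP genes. Of 20 such genes, 13 fell and 1 rose, against 5.99% and 7.84% of all tested genes, with a median log2 fold change of −1.23. S1pr1, for a receptor that guides cells out of tissue, fell from 145 ± 17.0 to 40.1 ± 7.33 CPM. Klf2, for a transcription factor that drives S1pr1, fell from 96.4 ± 19.1 to 56.1 ± 8.57 CPM, and Foxo1, for a factor upstream of Klf2, fell from 303 ± 37.7 to 176 ± 7.44 CPM (edgeR adjusted p = 3.37e-07, 0.00364 and 8.34e-05 for the 3 genes). Dapl1 fell from 17.3 ± 9.70 to 0.566 ± 0.480 CPM, and the chemokine receptor gene Ccr9 had 236 counts in all CD8 beta+ libraries together and 2 in the DN NK1.1+ group. The kinase gene Txk rose from 114 ± 19.9 to 248 ± 17.9 CPM. In DN NK1.1+ libraries this list summed to 2290, 2240 and 2090 CPM, below all CD8 beta+ sums. Without CD8 beta+ replicate 3, the low one, 16 of the 20 were lower. The GIMAP sum ran from 1720 to 1960 CPM over the same 6 libraries.

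The BCL-2 family and the autophagy proteins were listed because some of their members bind GIMAP proteins. Of 13 tested genes of the BCL-2 family, 2 rose (Bmf and Bcl2l11) and 3 fell (Pmaip1, Bcl2a1b and Bcl2a1d, the last pair near copies of each other), with a median log2 fold change of −0.09, against 7.84% higher and 5.99% lower of all tested genes. Bcl2, for the main survival factor of resting T cells, was at 392 ± 18.2 and 445 ± 52.0 CPM (edgeR adjusted p = 0.309). Pmaip1, for the death promoter NOXA, fell from 34.8 ± 6.01 to 11.2 ± 3.95 CPM, and Bmf, for another death promoter, rose from 9.87 ± 1.49 to 26.8 ± 5.22 CPM (edgeR adjusted p = 4.85e-04 and 3.08e-04). Only 1 BCL-2 family gene rose without any one of CD8 beta+ replicates 1 and 2 and DN NK1.1+ replicates 1 and 2. Of 14 genes of ATG8 proteins and autophagy, 2 rose and 0 fell in edgeR's test, with a median of −0.04. That count is near the background of 13.8% called over all tested genes. At an unadjusted p under 0.05, 2 were lower, and with DESeq2 or limma-voom 0 were. Gabarapl2, for the partner of GIMAP6, was at 88.6 ± 8.32 and 73.3 ± 8.42 CPM (edgeR adjusted p = 0.168). Its relative Gabarapl1 rose (11.0, 12.6 and 17.0 CPM against 19.9, 24 and 25.1 CPM, edgeR adjusted p = 0.0264), a call lost without any one of CD8 beta+ replicates 1 and 2 and DN NK1.1+ replicates 2 and 3 (0.0809 to 0.132), each of which left 1 riser in the list. Sqstm1, for the cargo receptor p62, rose from 161 ± 6.88 to 226 ± 20.2 CPM (edgeR adjusted p = 0.00313).

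Of 15 regulators of lymphocyte genes, 3 rose (Rbpj, Runx1 and Gata3) and 2 fell (Bcl11b and Ets1), with a median log2 fold change of 0.0093. Over all tested genes, 7.84% were higher and 5.99% lower. Over the alternatives, 2 to 4 of the regulators rose and 2 fell. Bcl11b, which guards T cell identity, was at 289 ± 14.9 and 53.3 ± 8.76 CPM (SD, n = 3), and Ets1, for an abundant lymphocyte factor, fell from 1430 ± 38.2 to 995 ± 26.6 CPM. Rbpj, for the DNA-binding partner of Notch, rose from 124 ± 8.96 to 194 ± 13.8 CPM, while Notch1 was at 220 ± 14.4 and 191 ± 15.8 CPM (edgeR adjusted p = 2.22e-09, 0.00103, 3.05e-04 and 0.227 for the 4 genes).

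**Figure D4:**
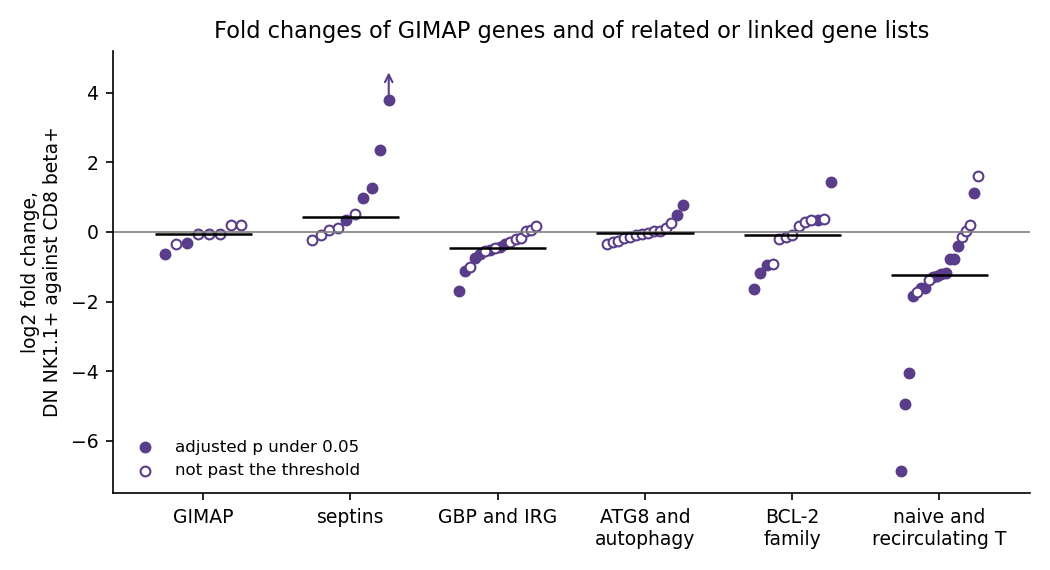
Log2 fold change of DN NK1.1+ against CD8 beta+ libraries (y axis) for each tested gene of 6 lists, with black lines at the medians and filled points past the adjusted p of 0.05. The arrow marks Sept5, drawn at its lower bound of 3.8, and the lowest point, Ccr9, rests on 2 counts in the DN NK1.1+ group. GIMAP genes lie between −0.64 and 0.20, around a median of −0.07, and naive and recirculating T cell genes around −1.23.

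Markers of other cells were measured in the same libraries, in which 7.84% of all tested genes were higher and 5.99% lower. Of 12 endothelial markers, 8 were tested and 1, Pecam1, rose (2 without CD8 beta+ replicate 3), from 31.8 ± 8.05 to 58.9 ± 9.51 CPM. Pecam1 is also made by lymphocytes and other leukocytes. The remaining 11 endothelial markers summed to 1.69, 4.48 and 32.3 CPM in CD8 beta+ libraries and to 27.6, 1.51 and 27.7 CPM in the DN NK1.1+ group. The defining marker Cdh5 was at 0, 0.939 and 4.74 CPM in CD8 beta+ libraries and at 3.53, 0 and 8.42 CPM in the DN NK1.1+ group. B cell markers summed to 33.7 to 91.2 CPM and 34.6 to 55.9 CPM, with 0 of 9 higher in edgeR's test and 1, Cd79b, lower (0 to 4 lower over the alternatives, 0 without CD8 beta+ replicate 1). The median log2 fold change of these 9 was −1.33, and only Jchain, at 4.99 ± 4.4 and 17.6 ± 1.72 CPM, had a positive one. Higher by an unadjusted p was 1 gene, Jchain, and 1 gene was higher with DESeq2, with limma-voom, with no filter, with the replicate block and without CD8 beta+ replicate 2. Myeloid markers summed to 239 to 334 CPM and 425 to 533 CPM, with 2 of 10, Itgax and Csf1r, higher (1 to 4 over the alternatives). Itgax alone was at 102, 107 and 130 CPM in CD8 beta+ libraries and at 258, 280 and 268 CPM in the DN NK1.1+ group. Lyz2, at 43.2, 60.2 and 86.2 CPM and at 110, 52.3 and 82.8 CPM, overlapped between the groups. It did not pass the test, and neither did Cd68, Adgre1, C1qa, C1qb, C1qc, Cd14 and Cst3. Among these Cd14 was at 1.73 ± 0.68 and 5.59 ± 4.19 CPM, and C1qb at 6.93 ± 4.47 and 13.2 ± 4.15 CPM. Only Cd68, at 10.1 ± 0.96 and 9.7 ± 4.03 CPM, had a negative log2 fold change. The median log2 fold change of the 10 tested myeloid markers was 0.58. Markers of luminal epithelium summed to 663 to 989 CPM and 376 to 2060 CPM, with 1 of 9, Epcam, higher. Epcam was at 30.8, 32.8 and 32.3 CPM in DN NK1.1+ replicates 1, 2 and 3, where Csn2 was at 139, 398 and 914 CPM. The luminal keratin genes Krt8, Krt18 and Krt19 did not pass the test. Of basal and stromal markers, 0 of 8 passed edgeR's test, also unadjusted and with DESeq2 or limma-voom. Basal and stromal markers summed to 51.9, 21 and 259 CPM in CD8 beta+ replicates 1, 2 and 3 and to 47.6, 14.8 and 262 CPM in DN NK1.1+ replicates 1, 2 and 3, so that libraries with the same number had like sums. The T cell markers were lower in sum too (3900 to 4230 CPM against 2360 to 2490 CPM), and NK cell markers higher in 9 of 10 (427 to 543 CPM against 3300 to 3490 CPM). The NK cell list and its sums include Klrb1c, which encodes the NK1.1 that names the group. The part of these cells in the levels of Gimap7, Gimap6 and the other members was not tested.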

How the data were processed

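The table deposited by the authors holds estimated counts per gene (a unit inferred from its values, 91.6% of them whole numbers). Per the labels' protocols, libraries of sorted cells were made with Tecan's Solo mouse kit. The submitters' processing notes list mm10 and Cell Ranger 7.1.0, a tool for single cells. Aligner, counter, annotation and use of strand: not given in the sources used here. Symbols stand in the column headed gene. Coordinates, exon lengths and transcripts came from GENCODE M21.

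Counts were rounded and tested with edgeR 4.0.16 (R 4.3.3, robust quasi-likelihood, TMM, group alone), with a minimum count of 10 and minimum total of 15, and adjusted over 13171 genes. Two-sided 95% intervals used the fit's own degrees of freedom. On simulated counts, the fit recovered 24.1% of 79 genes changed 1.5-fold, 67.9% of 53 changed 2-fold and 84.7% of 59 changed 4-fold, among 12749 genes, and 5.41% of 111 calls were false. Chi-square per degree of freedom between replicates was 9.07 to 23.5, so none was a copy of another. DESeq2 1.42.0, limma-voom (limma 3.58.1), other scalings and filters, a replicate block and left-out libraries were alternatives. Counting overlapping genes with a member was chosen after seeing the data.

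The members and lists were chosen with earlier results of these data known. Named genes were the members, their 4 nearest coding neighbours on each side, other genes at the cluster, the 5 most alike genes, and the 2 called genes with the largest change in each pathway or GTPase list, given at least 5 CPM in whichever group was higher. The other genes named are examples chosen after their values were seen. Values of 1 listed gene are not reported here.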

Additional observations from a re-analysis of the deposited data

How the results depend on the processing

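With 3 libraries a group, the 95% intervals set which differences of the members could be seen. Of the 8 members, 2 were lower, and 1 was lower with scaling by library size only. Leaving out each library in turn gave 1 to 2 lower members, 681 to 1093 higher genes and 499 to 883 lower genes, against 1033 and 789 with all libraries. The lowest of both gene counts came without CD8 beta+ replicate 1. Gimap7 was called in 15 of 15 alternatives, Gimap6 in 10, Gimap1 in 2, and the other 5 members in 0. Gimap3 changed sign with scaling by library size only (log2 fold change 0.00108), and Gimap5 without CD8 beta+ replicate 1 (0.0261, in a range of −0.144 to 0.0261 over left-out libraries). The 16 alternative share differences, with other lengths or none, kept their direction. Numbered replicates were not treated as pairs: the correlations of same-numbered libraries' deviations were −0.05, 0.189 and 0.256, and not all exceeded 0.1, although sums of basal and stromal markers were alike in libraries of the same number. With a replicate block, 1137 genes were higher and 945 lower, and 2 members lower (Gimap7 adjusted p from edgeR of 5.46e-04 and Gimap6 of 0.0352). CD8 beta+ replicates 2 and 3 correlated best with their own number, and replicate 1 with DN NK1.1+ replicate 2 (0.106).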

Other observations

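Septins, which form filaments and share the fold of the GIMAP GTPase domain, had 10 tested members, of which 5 rose (Sept4, Sept5, Sept7, Sept8 and Sept11) and 0 fell in edgeR's test (before adjustment 1, Sept6, was lower, and DESeq2 and limma-voom called 0), with a median log2 fold change of 0.428, also with Sept5 at its bound. For comparison, 7.84% of all tested genes were higher and 5.99% lower. Sept11 rose from 190 ± 29.1 to 374 ± 20.4 CPM (SD, n = 3, edgeR adjusted p = 1.78e-05). Sept4 had only 23 counts in CD8 beta+ libraries together and 126 in DN NK1.1+ libraries. Its means were 0.644 ± 0.462 and 3.47 ± 1.3 CPM (edgeR adjusted p = 0.0356). Sept5 had 0 counts over the CD8 beta+ group and 49 over the other, which is at least 13.9-fold higher when 3 counts per group are taken as the floor. Sept8 was at 4.81, 6.21 and 5.25 CPM and at 8.71, 10.2 and 19.9 CPM (edgeR adjusted p = 0.0193), a call lost without DN NK1.1+ replicate 3 (0.163), without CD8 beta+ replicate 1 or 2 (0.093 and 0.0526) and with limma-voom (0.0692). The number of septins that rose was 1 without CD8 beta+ replicate 1 and 2 without CD8 beta+ replicate 2 or DN NK1.1+ replicate 2. It was 3 without DN NK1.1+ replicate 1 or 3, with limma-voom or with a mean CPM of at least 5. The symbol Sept2 stands for 2 gene IDs in the table, of which the more abundant was used. The abundant Sept6 and Sept9 did not pass the test, at 343 ± 7.19 and 293 ± 19.0 CPM and at 236 ± 14.7 and 256 ± 3.37 CPM.

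Interferon-inducible GTPases of the GBP and IRG families, which act against intracellular microbes, had 7 of 16 members lower and 0 higher in DN NK1.1+ libraries (0 higher also unadjusted, with DESeq2 and with limma-voom), with a median log2 fold change of −0.45. Tgtp1 fell from 37.7 ± 10.0 to 11.6 ± 2.25 CPM (SD, n = 3), and Gbp6 was at 49.3, 58.6 and 54.2 CPM and at 23.2, 22.9 and 29.1 CPM (edgeR adjusted p = 9.15e-05 and 1.10e-04). Genes of both families resemble each other closely, so counts of single members are uncertain. Over all tested genes, 7.84% were higher and 5.99% lower.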
